A study of Mus musculus with 8 samples.

Results

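The *Klotho*, phosphate and vitamin D genes are 10 genes chosen by symbol from the 32285 genes counted in kidney cells of mouse embryos. They are the co-receptor *Kl* and the receptors *Fgfr1* and *Pth1r*, the phosphate transporters *Slc34a1*, *Slc34a3* and *Slc20a2*, the scaffold gene *Slc9a3r1*, and the vitamin D genes *Vdr*, *Cyp27b1* and *Cyp24a1*. All 10 had counts, from 126 unique molecular identifiers (UMIs) for *Slc34a3* to 29322 for *Slc34a1* in the 7363 cells that could be assigned to a mouse.

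The study deleted *Trim28*, which encodes a co-repressor of transcription, in nephron progenitors. The kidneys of 2 male *Trim28*Δ/Δ embryos (mice 1 and 2) and of 2 male *Trim28*f/f embryos (mice 3 and 4) were dissociated in the cold at E17.5 by the labels (a day later by the methods of the study) and read as a single pool. *Trim28*Δ/Δ mice carry a transgene with EGFP and cre under the *Six2* promoter, and both alleles of *Trim28* have loxP sites in all 4 mice, so that the controls carry the unrecombined floxed alleles. *Six2* marks nephron progenitors and cre acts in them and their descendants, whereas stroma and the ureteric bud lineage arise from other progenitors. Within the kidney the deletion is therefore limited to the nephron lineage. The study also reports changed expression in stroma and proposes that the tubules influence it. The 6 bulk samples of the series, from kidneys at P0, were not analysed here.

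The cells of each mouse carried a DNA tag on their membrane, sequenced apart from the RNA, and every comparison of genotypes rests on these 4 tags of 15 bases, which are therefore shown.
Mouse 1, *Trim28*Δ/Δ: cgcgatatggtcgga
Mouse 2, *Trim28*Δ/Δ: cggattccacatcat
Mouse 3, *Trim28*f/f: aagatgaggtctgtg
Mouse 4, *Trim28*f/f: aagctcgttggaaga

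The kidney sets the level of phosphate in blood by the amount of sodium-phosphate cotransporter in the brush border of the proximal tubule. FGF23, a hormone made in bone, acts on FGF receptors bound to klotho, and parathyroid hormone acts on its own receptor, and both withdraw the transporters from the membrane. The same tubule makes active vitamin D with CYP27B1 and breaks it down with CYP24A1, and active vitamin D acts through the receptor VDR. In the adult kidney klotho is known above all from the distal tubule, with lower levels in the proximal tubule.

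Mice 1 to 4 gave 1316, 1491, 2749 and 1807 cells with medians between 16386 and 17354 UMIs per cell. Cells were clustered without the 10 genes and clusters were named from markers of kidney cell types, which gave 18 classes with at least 10 cells in every mouse. PT-like cells (proximal tubule, 263, 279, 147 and 165 cells in mice 1 to 4) had all 8 markers of their list raised, ErPT-like cells (early proximal tubule) all 5, loop of Henle-like cells all 6, distal tubule-like cells all 5 and podocyte-like cells all 7. SSB-like cells (S-shaped body) had all 5 but were led by cell cycle genes, and 3 of the 18 classes stay unnamed. NPC-like cells (nephron progenitors) had all 6 and came from a pair of clusters. The one led by *Tmem100* and *Pcp4* was named renal vesicle-like in a finer clustering. It gave 33 of 47, 40 of 74, 129 of 214 and 178 of 390 NPC-like cells in mice 1 to 4. Mouse 3 stood apart from the others. It held 174 of the 175 cells of a collecting duct-like cluster. It also held 222 of the 275 cells of an ErPT-like cluster led by *Sult1d1* and *Mt2*. Of a loop of Henle-like cluster led by *Umod* and *Ddit3* it held 103 of the 105 cells. Of a PT-like cluster led by *Aadat* it held 16 of the 404 cells. Comparisons of genotypes within PT-like, ErPT-like and loop of Henle-like cells are therefore given with and without those clusters. Differences between classes are given without a cluster only for *Kl* and the cluster led by *Umod* and *Ddit3*. Levels are given without these clusters only for *Kl*, *Slc34a1*, *Pth1r* and *Cyp27b1*.

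Levels are UMIs of a gene relative to all UMIs of a mouse's cells in a class, as CPM, the usual scale of such counts. The library reads the 3′ ends of transcripts, so CPM are not scaled by gene length and genes are compared with themselves. Barcodes with 10 to 100 UMIs, which hold RNA free in the suspension, had 315 CPM of *Slc34a1*, 107 CPM of *Pth1r*, 89.7 CPM of *Slc9a3r1*, 61.2 CPM of *Fgfr1*, 27.4 CPM of *Kl* and 24.7 CPM of *Cyp27b1*, and part of the level of every class can be such RNA. Where it matters, levels are also given after subtraction of the free RNA expected in each class of each mouse. A level of 0 after it depends on how the free RNA was scaled and does not show that a gene is absent. The mice were too few for a rank-based call, since the exact permutation test of 2 against 2 cannot give a p under 0.333, and genotypes were compared with edgeR's quasi-likelihood test over all genes of a class, with p adjusted by Benjamini-Hochberg and called under 0.05.

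*Trim28* was counted in every mouse. Its level in NPC-like cells (nephron progenitors) was 27.6 and 23.7 CPM in the *Trim28*Δ/Δ mice, against 137 and 160 CPM in the *Trim28*f/f mice. In PT-like cells it was 23.0 and 24.7 CPM against 59.5 and 76.8 CPM. In stroma-like cells, outside the *Six2* lineage, it was 105 and 101 CPM against 85.1 and 114 CPM. *Trim28* fell by 2.68 ± 0.21 (SE) on the log2 scale in NPC-like cells and by 1.53 ± 0.16 in PT-like cells, where the adjusted p was 0.0143 (edgeR). The loxP sites lie in introns and the 3′ end of the gene lies outside the deleted segment, so these 3′ counts do not read the deletion itself. The study states that the shifted reading frame after deletion will lead to decay of the mRNA, which was not tested here.

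In *Trim28*f/f mice the 10 genes differed in the class with the highest level. For 5 of them, *Slc34a1*, *Slc34a3*, *Slc9a3r1*, *Cyp27b1* and *Cyp24a1*, the highest mean level was in PT-like cells, and for *Kl* and *Vdr* it was in distal tubule-like cells. *Pth1r* was highest in podocyte-like cells, *Fgfr1* in an unnamed class that overlapped with NPC-like cells, and *Slc20a2* was even over the nephron. Classes were made from the same cells, so their levels are described and not tested against each other.

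**Figure D1:**
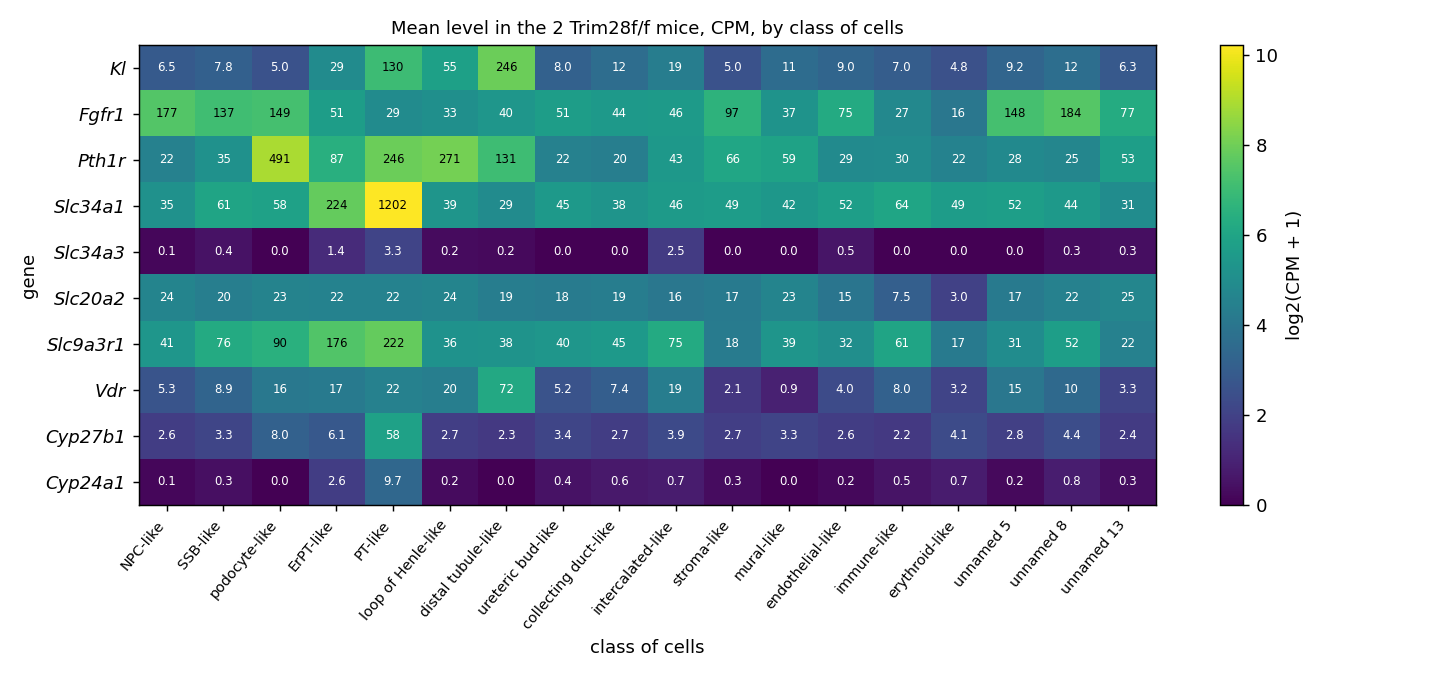
Mean level of each gene (rows) in each class of cells (columns) over the 2 Trim28f/f mice, with CPM printed in the cells and colour giving log2(CPM + 1). Slc34a1 and Cyp27b1 are brightest in PT-like cells, Kl and Vdr in distal tubule-like cells, Pth1r in podocyte-like cells, and Slc20a2 is even over the nephron.

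*Kl* encodes klotho, the membrane protein that lets FGF23 bind FGF receptors (ENSMUSG00000058488, chr5:150952607-150993817, plus strand, GRCm38). In distal tubule-like cells its level was 221 CPM in mouse 1, 85.8 CPM in mouse 2, 129 CPM in mouse 3 and 362 CPM in mouse 4. Both genotypes had a mouse with a low and a mouse with a high level there, and the genotypes overlapped. In PT-like cells it was 71.8 and 67.5 CPM in the *Trim28*Δ/Δ mice and 93.4 and 166 CPM in the *Trim28*f/f mice, and the genotypes did not overlap. In loop of Henle-like cells it was 88.2 and 68.3 CPM against 41.1 and 69.4 CPM, with overlap. Without the cells of the *Umod*- and *Ddit3*-led cluster, 65 of the 181 loop of Henle-like cells of mouse 3 and 1 of mouse 4, the controls had 55.99 and 70.4 CPM, and the genotypes still overlapped. In the *Trim28*f/f mice the order ran from distal tubule-like over PT-like and loop of Henle-like to ErPT-like cells, where *Kl* had 33.9 and 24.8 CPM. Distal tubule-like and PT-like cells overlapped in this order, and each later class lay below the one before it in both mice. PT-like cells, 6.85% of the cells of the *Trim28*f/f mice, held 38.6% of their *Kl* UMIs, and distal tubule-like cells, 3.07% of the cells, held 21.5%. In immune-like cells, which should lack *Kl*, the level was between 5.47 and 12.4 CPM over the 4 mice.

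The promoter of *Kl* is shown because *Kl* was called between genotypes in a cluster of PT-like cells, with the values given further on. The 250 bases before its start in RefSeq (chr5:150952357-150952606, plus strand, GRCm38.p6) hold GGGCGG, the letters of a GC box, once on each strand, marked in capitals.
*Kl*: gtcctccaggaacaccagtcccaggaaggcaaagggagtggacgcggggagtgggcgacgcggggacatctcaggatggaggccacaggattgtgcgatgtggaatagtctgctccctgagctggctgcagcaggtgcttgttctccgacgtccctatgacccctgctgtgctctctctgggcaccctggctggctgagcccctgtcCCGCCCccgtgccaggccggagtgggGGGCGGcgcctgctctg
GGGCGG on either strand is found in 32.7% of the 32851 promoter windows of this length in the table. Also searched on both strands were AGGTCA, known from nuclear receptor sites and found in 14.0% of the windows, GGTTCA, known from sites of the vitamin D receptor and found in 8.85%, the TATA box as TATAAA in 12.4%, the CCAAT box in 33.9% and the E-box as CACGTG in 6.02%. None of these letters are in the window of *Kl*.

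*Fgfr1* encodes the FGF receptor to which klotho is best known to bind (ENSMUSG00000031565, chr8:25513654-25575718, plus strand). Its level was 205 and 201 CPM in NPC-like cells of the *Trim28*Δ/Δ mice and 180 and 174 CPM in those of the *Trim28*f/f mice. Along the lineage it was lower, with 132 and 109 CPM against 145 and 130 CPM in SSB-like cells. In PT-like cells it was 21.2 and 23.7 CPM against 30.1 and 28.3 CPM, so both *Trim28*Δ/Δ mice lay below both controls. Subtraction of free RNA left 8.28 and 11.5 CPM against 16.3 and 16.5 CPM there. Podocyte-like cells, the filter cells of the glomerulus, had 200 and 215 CPM against 138 and 161 CPM. The share of cells with an *Fgfr1* UMI, after each cell was thinned to 6800 UMIs, was between 57.0% and 59.5% over the 4 mice in NPC-like cells and between 10.2% and 16.5% in PT-like cells. In immune-like cells it was between 9.59% and 15.4%, so the thinned shares of both classes overlapped. Median depths before thinning were 12624 to 14898 UMIs there and 22200 to 25845 UMIs in PT-like cells. Subtraction of free RNA left 4.68 to 26.96 CPM in immune-like cells, which are therefore no clean reference for this gene. The overlap cannot decide whether PT-like cells express *Fgfr1*. Unthinned, the shares were 34.7% to 44.8% in PT-like and 15.1% to 34.6% in immune-like cells. The classes with high *Fgfr1* were low in *Kl*, of which NPC-like cells had between 3.48 and 8.18 CPM.

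*Pth1r* encodes the receptor of parathyroid hormone and its related peptide (ENSMUSG00000032492, chr9:110722085-110747145, minus strand). In podocyte-like cells its level was 354 CPM in both *Trim28*Δ/Δ mice and 461 and 521 CPM in the *Trim28*f/f mice. The genotypes did not overlap, on 108, 56, 418 and 188 UMIs in mice 1 to 4. The summed podocyte markers in these cells moved with the genotype as well, with 8322 and 8659 CPM against 9547 and 9472 CPM. The ErPT and mural sums were also lower, and the renal vesicle and distal tubule sums higher, in both *Trim28*Δ/Δ mice, and the part of these sums in the *Pth1r* levels was not tested. In loop of Henle-like cells it was 401 and 280 CPM against 232 and 310 CPM, and the controls had 307 and 314 CPM without the *Umod*- and *Ddit3*-led cluster. In PT-like cells it was 259 and 228 CPM against 246 and 245 CPM, and the genotypes overlapped in both classes. Distal tubule-like cells had 192 and 85.8 CPM against 83.7 and 179 CPM, so that mice 1 and 4 were high for both *Kl* and *Pth1r* in these cells and mice 2 and 3 low for both. After thinning, a *Pth1r* UMI was found in between 76.9% and 86.7% of podocyte-like cells and in between 11.4% and 15.5% of endothelial-like cells, which should lack it (median depths of 9333 to 10748 and of 11094 to 14221 UMIs). Unthinned, these shares were 90.3% to 95.3% and 20.4% to 29.8%.

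**Figure D2:**
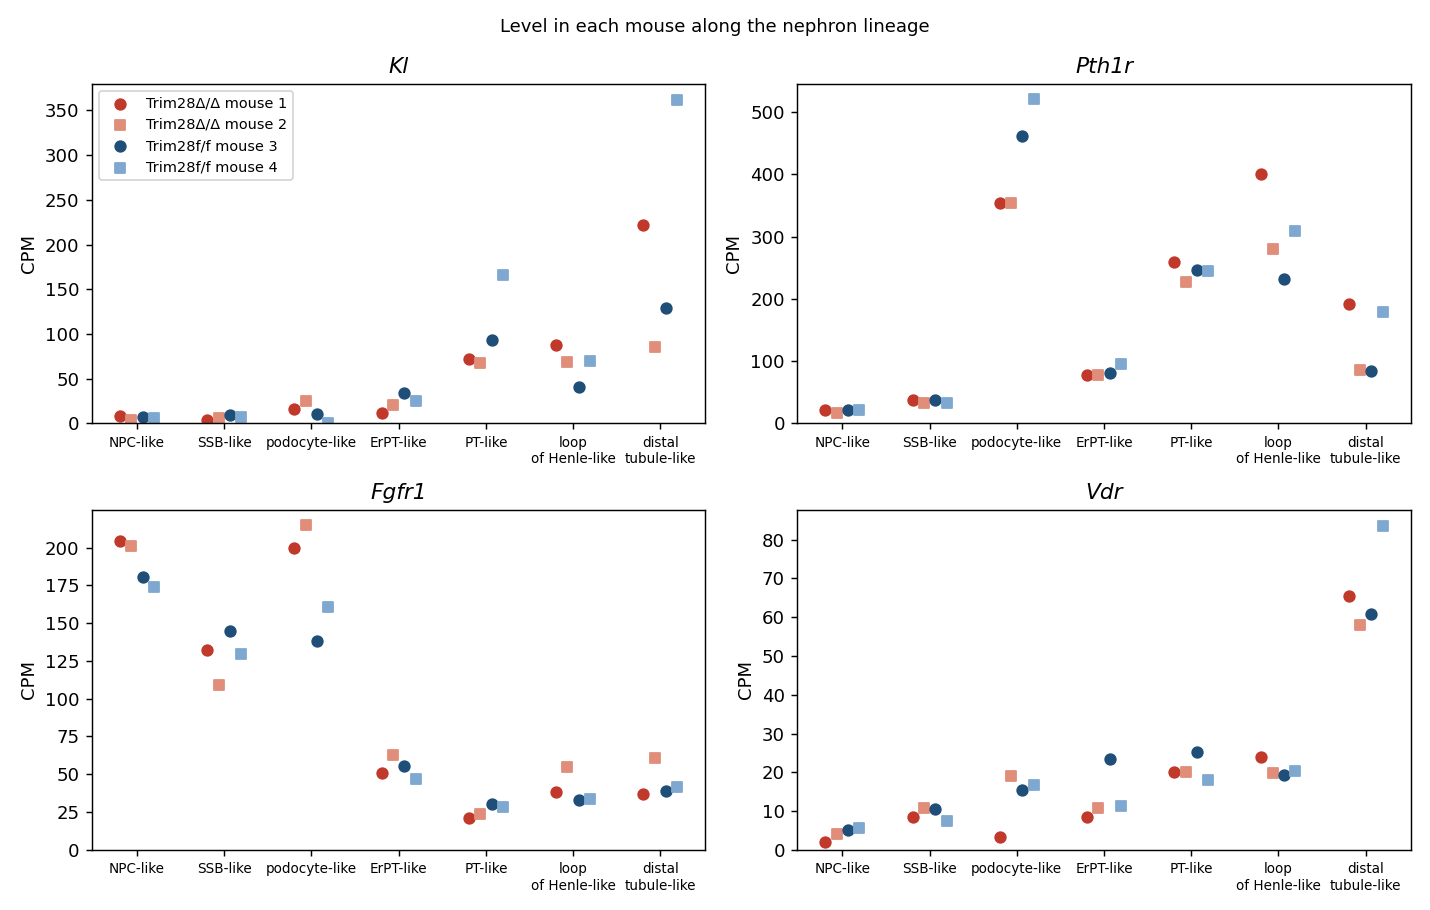
Level in CPM of Kl, Pth1r, Fgfr1 and Vdr in each of the 4 mice (points) in 7 classes of the nephron lineage, from nephron progenitors on the left to the distal tubule on the right. Kl and Vdr have their highest points in distal tubule-like cells, Fgfr1 is high in NPC-like, SSB-like and podocyte-like cells, and mice 1 and 4 lie above mice 2 and 3 for Kl and Pth1r in distal tubule-like cells.

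*Slc34a1* encodes NaPi-IIa, the main sodium-phosphate cotransporter of the proximal tubule (ENSMUSG00000021490, chr13:55398187-55415592, plus strand). Its level in PT-like cells was 818 and 690 CPM in the *Trim28*Δ/Δ mice and 1249 and 1154 CPM in the *Trim28*f/f mice, and the genotypes did not overlap. ErPT-like cells followed with 105 and 100 CPM against 245 and 202 CPM. In all other classes, stroma, immune and endothelial cells included, the level was between 16.1 and 74.7 CPM in every mouse, and subtraction of free RNA left at most 4.68 CPM there, except for 25.6 CPM in the erythroid-like cells of mouse 4, which had 25 UMIs of *Slc34a1* in all. PT-like cells held 64.1% of the *Slc34a1* UMIs of the *Trim28*f/f mice. A UMI was found in 97.0% and 96.8% of PT-like cells of mice 1 and 2 and in 100% and 97.6% of those of mice 3 and 4. In immune-like cells, which should lack it, the share was between 37.1% and 61.5%. Thinned to 6800 UMIs per cell, the shares of PT-like cells were 91.6% and 89.2% against 100% and 92.1%, and those of immune-like cells between 14.3% and 38.9%. Both *Trim28*Δ/Δ mice lay below both controls in the share of PT-like cells too, with and without thinning, though the share was near its upper limit (p = 0.333, two-sided exact permutation test, the smallest it can give).

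The promoter of *Slc34a1* is shown because *Slc34a1* was called between genotypes both in ErPT-like cells and in a cluster of PT-like cells, with the values given further on. The 250 bases before its start in RefSeq (chr13:55399398-55399647, plus strand, GRCm38.p6) hold GTTAAT, letters known from binding sites of HNF1 factors, once on each strand, marked in capitals. This RefSeq start lies after the start of the gene given above, so the window lies within the gene at those positions.
*Slc34a1*: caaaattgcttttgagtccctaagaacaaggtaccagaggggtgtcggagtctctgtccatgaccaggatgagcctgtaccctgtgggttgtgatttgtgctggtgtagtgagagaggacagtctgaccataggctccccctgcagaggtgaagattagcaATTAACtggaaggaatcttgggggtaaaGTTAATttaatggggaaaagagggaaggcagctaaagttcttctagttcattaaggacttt
The letters lie 61 to 56 bases before the start on the plus strand and 89 to 84 bases before it on the minus strand. GTTAAT is found on either strand in 6.43% of the 32851 windows and in none of the other windows of the list. RefSeq windows were found for 7 of the 10 genes, with *Slc20a2*, *Fgfr1* and *Cyp24a1* missing.

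*Slc34a3* encodes NaPi-IIc, a further cotransporter of the brush border (ENSMUSG00000006469, chr2:25228898-25234364, minus strand). It was near the limit of detection, with 4.57 and 3.07 CPM in PT-like cells of the *Trim28*Δ/Δ mice and 3.77 and 2.87 CPM in those of the *Trim28*f/f mice, on 31, 23, 15 and 14 UMIs. The genotypes overlapped. *Slc34a3* had 0 UMIs in the stroma-like, mural-like, podocyte-like, immune-like, erythroid-like and ureteric bud-like cells of all 4 mice. In the 73 immune-like cells of mouse 3 that count of 0 allows a share of cells with a UMI of up to 4.11%, from counting error only.

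*Slc20a2* encodes PiT-2, a phosphate transporter of the other family, found in many tissues (ENSMUSG00000037656, chr8:22476788-22569612, plus strand, overlapped on its strand by *Gm17491*, so that reads could be split between them). In PT-like cells it had 21.2 and 20.5 CPM against 25.1 and 19.3 CPM, and in NPC-like cells 15.3 and 29.3 CPM against 19.8 and 27.5 CPM. Over the 18 classes the means of the *Trim28*f/f mice ran from 2.98 CPM in erythroid-like cells to 24.8 CPM in an unnamed class, and its highest 5 classes each overlapped with the next.

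*Slc9a3r1* encodes NHERF1, a scaffold of the brush border that holds NaPi-IIa at the membrane (ENSMUSG00000020733, chr11:115163341-115181181, plus strand). It had 275 and 260 CPM in PT-like cells of the *Trim28*Δ/Δ mice and 185 and 260 CPM in those of the *Trim28*f/f mice. In ErPT-like cells it had 177 and 177 CPM against 163 and 190 CPM. Unlike *Slc34a1*, whose mean in the *Trim28*f/f mice was 224 CPM in ErPT-like and 1202 CPM in PT-like cells, *Slc9a3r1* had 176 and 222 CPM, and both classes overlapped.

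*Vdr* encodes the vitamin D receptor (ENSMUSG00000022479, chr15:97854425-97910630, minus strand). In distal tubule-like cells it had 65.5 and 58.1 CPM against 60.8 and 83.6 CPM, above every other class in both *Trim28*f/f mice. PT-like cells had 20.1 CPM in both *Trim28*Δ/Δ mice and 25.4 and 18.1 CPM in the *Trim28*f/f mice, and loop of Henle-like cells had 24.0 and 19.7 CPM against 19.3 and 20.2 CPM. The genotypes overlapped in all 3 classes.

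*Cyp27b1* encodes the enzyme that makes active vitamin D (ENSMUSG00000006724, chr10:127048250-127053006, plus strand). It had 73.0 and 61.1 CPM in PT-like cells of the *Trim28*Δ/Δ mice and 61.8 and 53.4 CPM in those of the *Trim28*f/f mice, with overlap, and at most 9.73 CPM in any mouse of any other class. Within PT-like cells the level was uneven. In a finer clustering, cells led by *Spp2* and *Fbp1* had 98.4 and 88.4 CPM against 68.7 and 77.8 CPM, whereas cells led by *Aadat* and *Cryab* had between 3.73 and 7.59 CPM, of which subtraction of free RNA left 0 in all 4 mice. A *Cyp27b1* UMI was found in between 56.9% and 69.8% of the *Spp2*-led cells and in between 6.87% and 18.8% of the *Aadat*-led cells, against 0% to 7.69% of immune-like cells. After thinning the shares were 28.5% to 37.7%, 0% to 3.57% and 0% to 7.69%, so the *Aadat*-led cells were at the level of background. *Cyp24a1*, which encodes the enzyme that breaks active vitamin D down (ENSMUSG00000038567, chr2:170482708-170497145, minus strand), had 8, 42, 20 and 70 UMIs in PT-like cells of mice 1 to 4, which came to 1.18, 5.60, 5.02 and 14.4 CPM. These UMIs came from 7, 11, 4 and 18 cells. The genotypes overlapped, and leaving ErPT-like and PT-like cells aside no class had more than 1.77 CPM in any mouse.

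The genes whose levels were most like those of a member over the 18 classes, by Pearson's r of log2(CPM + 10) of the *Trim28*f/f means, are given for 7 members. *Slc34a1* was most like *Fbp2* (r = 0.993), *Sod3* (r = 0.989) and *Prodh2* (r = 0.986). *Cyp27b1* was most like the transporter genes *Slc17a1* (r = 0.984), *Slc22a19* (r = 0.982) and *Slc22a2* (r = 0.980). *Slc9a3r1* was most like *Lactb2*, *Slc37a4* and *Klc4*, with r between 0.898 and 0.931. *Kl* was most like *Kcnj16*, a potassium channel gene, *Ush1c* and *Fabp3*, with r between 0.899 and 0.902. *Vdr* was most like *Rnaset2b*, *Trabd2b* and *Atp5b*, with r between 0.863 and 0.873, and *Kl* and *Vdr* had r = 0.832 with each other. *Fgfr1* was most like *Siva1*, *Nap1l1* and *Cdh4*, with r between 0.863 and 0.892, and *Pth1r* was most like *Creb3l1*, *Speg* and *Mertk*, with r between 0.809 and 0.818. The classes share mice and free RNA, and no test was made of these values.

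The genotypes were first compared in PT-like cells, where 5 of the members had their highest level. All 10 genes passed the filter on low counts in PT-like cells and none passed the threshold, where 0.459% of the 12189 genes tested did (56 genes). At an unadjusted p under 0.05 (edgeR) were 3 of the 10, as were 10.1% of all genes tested, and DESeq2 called 2 of the 10 and 0.837% of all genes. *Slc34a1* had a log2 fold change of -0.68 ± 0.12 (SE, 2 against 2 mice, adjusted p = 0.0781, edgeR), that is, both *Trim28*Δ/Δ mice lower. *Kl* had -0.91 ± 0.24 (adjusted p = 0.231, edgeR) and *Fgfr1* -0.39 ± 0.15 (adjusted p = 0.443, edgeR). With DESeq2 the adjusted p was 0.00141 for *Slc34a1* and 0.0219 for *Kl*. In these 3 genes both *Trim28*Δ/Δ mice lay below both *Trim28*f/f mice, as 19.3% of all genes did, and in 1 gene, *Slc9a3r1*, both lay above, as 20.6% did, though mice 2 and 4 were both at 260 CPM. The median log2 fold change of the 10 genes was -0.10 and that of all genes tested -0.01. *Pth1r* (-0.02 ± 0.11), *Slc20a2* (-0.09 ± 0.18), *Vdr* (-0.11 ± 0.20), *Cyp27b1* (0.21 ± 0.15) and *Slc34a3* (0.20 ± 0.38) had adjusted p values between 0.724 and 0.969 (edgeR), which does not show that their levels were alike. *Cyp24a1* had -1.52 ± 0.66 (adjusted p = 0.506, edgeR) on few cells.

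**Figure D3:**
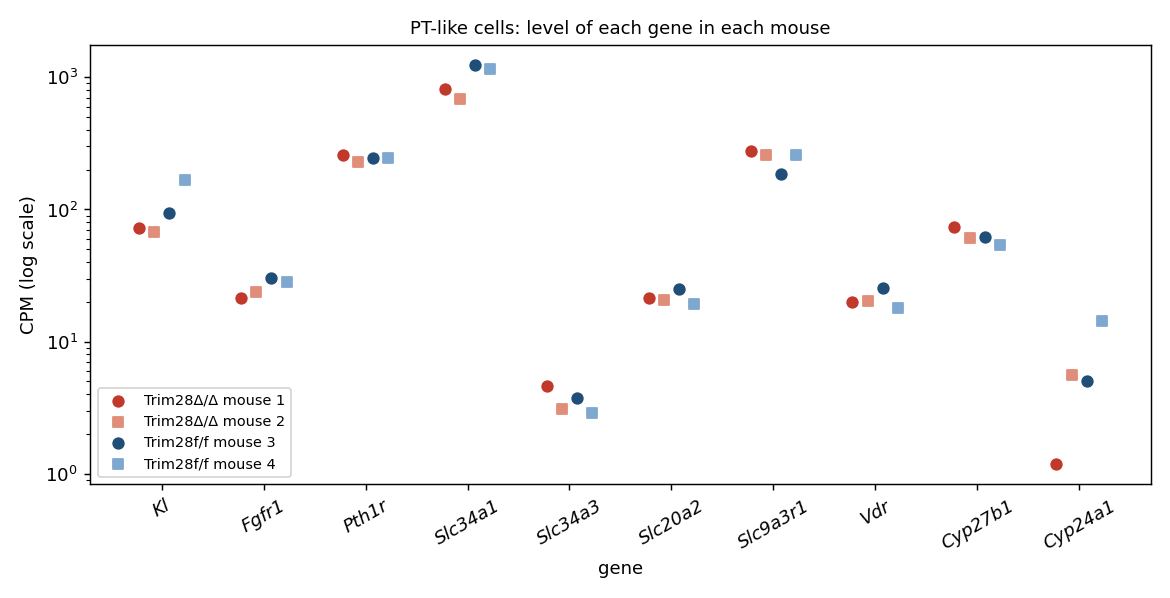
Level of each of the 10 genes in PT-like cells, in CPM on a log scale, with a point for each mouse (2 Trim28Δ/Δ in red, 2 Trim28f/f in blue). The red points lie below the blue ones for Kl, Fgfr1 and Slc34a1 and mix with them, or are higher, for the rest.

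The share of PT-like cells with a *Kl* UMI was 57.4% (95% exact interval 51.2% to 63.5%) and 54.1% (48.1% to 60.1%) in mice 1 and 2, and 72.8% (64.8% to 79.8%) and 86.1% (79.8% to 91.0%) in mice 3 and 4. Median depths of these cells lay between 22200 and 25845 UMIs. Thinned to 6800 UMIs per cell, the shares were 29.3% and 30.1% against 36.1% and 55.2%, all above the 4.11% to 7.69% of immune-like cells. The difference of the means was -23.7 percentage points, and -15.9 after thinning, with the smallest p that the exact test allows (p = 0.333, two-sided permutation over mice).

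All but 3 of the PT-like cells fell into a pair of clusters in the finer clustering, the 3 being cells of mouse 3 in the *Sult1d1*-led cluster, and the pair differed in the level of the members. The *Spp2*-led cluster, rich in transport genes such as *Slc22a6*, had 182, 175, 130 and 103 cells in mice 1 to 4. The *Aadat*-led cluster, with *Cryab*, *Slc7a12* and *Serpina6* among its leading genes, had 131, 173, 16 and 84 cells. It had 5 of the 8 PT markers raised and none among its leading genes. It also took in cells of an unnamed cluster led by *Cryab* and *Cp*, which had the urea transporter gene *Slc14a2* among its leading genes. These made up 47, 61, 2 and 20 of its cells in mice 1 to 4, a larger part in both *Trim28*Δ/Δ mice. In the coarser clustering 81, 104, 14 and 62 of its cells were PT-like. Its PT markers, summed, were at 2545 to 3600 CPM against 8494 to 9548 CPM in the *Spp2*-led cluster. Within the *Aadat*-led cluster the PT sum was 2850 and 2545 CPM in the *Trim28*Δ/Δ mice and 3600 and 3029 CPM in the *Trim28*f/f mice. The ErPT sum had 554 and 615 CPM against 392.1 and 537 CPM, and the SSB sum 334 and 340 CPM against 278 and 307 CPM. The loop of Henle, endothelial and mural sums were also higher, and the NPC sum lower, in both *Trim28*Δ/Δ mice, and the part of these shifts in the calls that follow was not tested.

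In the *Aadat*-led cluster *Slc34a1* had 232 and 225 CPM in the *Trim28*Δ/Δ mice and 567 and 489 CPM in the *Trim28*f/f mice, a log2 fold change of -1.24 ± 0.14 (adjusted p = 0.000423, edgeR). *Kl* had 25.0 and 28.4 CPM against 45.5 and 75.01 CPM, a log2 fold change of -1.37 ± 0.21 (adjusted p = 0.00619, edgeR). Both fell there, so 2 of the 7 members tested were called, where 0.664% of the 10837 genes tested were, and 0.231% of them as lower. The study had already reported both genes as lower in proximal tubule cells of the same single-cell data. The cluster was taken alone after the data had been seen, so this count is no independent support. Without the cells that were not PT-like in the coarser clustering, *Slc34a1* had -0.99 ± 0.12 (adjusted p = 0.000474, edgeR) and *Kl* -1.26 ± 0.23 (adjusted p = 0.0261, edgeR), where 0.578% of genes were called. Mouse 3 gave 224 and 18 UMIs of these genes from only 16 cells. Without mouse 3, *Slc34a1* had -1.13 and *Kl* -1.51, both still called. Without mouse 4, *Kl* had -0.82 (adjusted p = 0.307, edgeR) and was no longer called, nor was it without mouse 1 (-1.21, adjusted p = 0.275, edgeR) or with DESeq2 (adjusted p = 0.173). After subtraction of free RNA *Kl* had 22.9, 28.5, 52.6 and 96.6 CPM in mice 1 to 4. The share of these cells with a *Kl* UMI after thinning was 13.7% and 16.8% against 12.5% and 31.0%, so that mouse 3 lay below both *Trim28*Δ/Δ mice (p = 1, two-sided exact permutation test), and unthinned it was 32.1% and 30.6% against 43.8% and 64.3%. In the *Spp2*-led cluster *Slc34a1* had 1004 and 864 CPM against 1319 and 1416 CPM (log2 fold change -0.54 ± 0.12, adjusted p = 0.119, edgeR), and *Kl* had 87.0 and 83.1 CPM against 98.5 and 205 CPM (-0.82 ± 0.28, adjusted p = 0.296, edgeR). The other 8 members had adjusted p values between 0.310 and 0.980 there (edgeR). Of the genes tested in that cluster 0.593% were called. Whether the changes differ between the clusters was not tested.

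**Figure D4:**
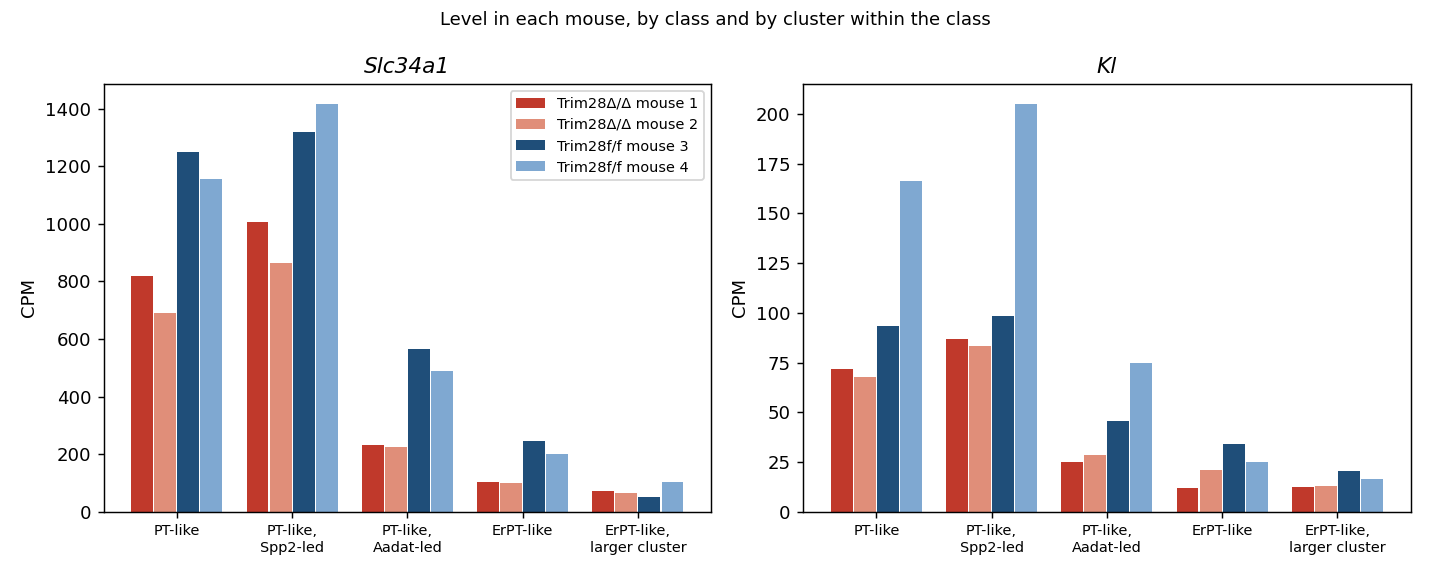
Level of Slc34a1 (left) and Kl (right) in CPM, with a bar for each mouse, in PT-like cells, in their Spp2-led and Aadat-led clusters, in ErPT-like cells and in the larger ErPT-like cluster. Both Trim28Δ/Δ bars lie below both Trim28f/f bars in every group but for Slc34a1 in the larger ErPT-like cluster, where mouse 3 is lowest.

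In ErPT-like cells *Slc34a1* was the 1 member called of the 8 tested, where 0.372% of 11292 genes were (42 genes, of which 3, or 0.0266%, were lower). Its log2 fold change was -1.14 ± 0.16 (adjusted p = 0.0319, edgeR). In the larger ErPT-like cluster *Slc34a1* had 72.3 and 65.0 CPM in the *Trim28*Δ/Δ embryos, against 51.9 and 103 CPM in the others, with a log2 fold change of -0.15 ± 0.29 (adjusted p = 0.944, edgeR), and none of the 7 members tested there was called or had an unadjusted p under 0.05 (edgeR), where 0.432% of the genes tested were called. The smaller cluster, led by *Sult1d1*, had 379 and 302 CPM on 6 and 12 *Trim28*Δ/Δ cells, and 455 and 529 CPM on 222 and 35 cells of the controls. The number of *Sult1d1*-led cells moved with the genotype and most of all with mouse 3, and its part in the call was not tested. In ErPT-like cells the summed erythroid markers had 4538 and 3847 CPM in the *Trim28*Δ/Δ mice, against 1458 and 1210 CPM in the controls, and the summed PT markers 981 and 1172 CPM against 1585 and 1860 CPM. The ErPT, NPC, mural, podocyte and intercalated sums were also lower, and the immune sum higher, in both *Trim28*Δ/Δ mice, and the part of these sums in the call was not tested. Subtraction of free RNA left 0 CPM of *Slc34a1* in all 4 mice in the larger cluster, and 0 and 0 against 189 and 128 CPM in ErPT-like cells as a whole. It took 38.1% to 41.1% of the UMIs of ErPT-like cells as free RNA, and 33.4% to 35.9% of those of the larger cluster. In immune-like cells it took 22.5% to 24.9%. These levels of 0 depend on that scaling and do not show absence. The call was also lost without mouse 1 and without mouse 2. Each of these fits leaves a lone *Trim28*Δ/Δ mouse, and the loss was not particular to *Slc34a1*. *Kl* in ErPT-like cells had 11.8 and 21.0 CPM against 33.9 and 24.8 CPM (-0.83 ± 0.31, adjusted p = 0.642, edgeR).

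Over the 18 classes 109 tests of members were made and the *Slc34a1* call in ErPT-like cells was the only one, where 0.32% of the 160678 tests over all genes gave a call. In distal tubule-like cells *Kl* had a log2 fold change of -0.66 ± 0.41 (adjusted p = 0.765, edgeR) on 274, 99, 317 and 342 UMIs in mice 1 to 4. Without mouse 1 it was -1.55 (adjusted p = 0.00140, edgeR), without mouse 3 it was -1.27 (adjusted p = 1.25e-06, edgeR), and without mouse 4 it was 0.26, so single mice decide this value. In loop of Henle-like cells *Kl* had 0.51 ± 0.27 (adjusted p = 0.692, edgeR), and without the cluster held by mouse 3 it had 0.31 ± 0.21 (adjusted p = 0.869, edgeR). The other 6 members tested in these cells had adjusted p values between 0.666 and 0.979 with that cluster and between 0.728 and 0.993 without it (edgeR). *Pth1r* in podocyte-like cells had -0.53 ± 0.23 (adjusted p = 0.653, edgeR), *Fgfr1* in NPC-like cells had 0.06 ± 0.14 (adjusted p = 0.943, edgeR) and *Vdr* in distal tubule-like cells had -0.21 ± 0.23 (adjusted p = 0.922, edgeR).

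The difference between classes in the change with genotype was tested for PT-like cells against ErPT-like, loop of Henle-like and distal tubule-like cells. None of the 10 genes was called in the 3 comparisons, in which 0.111%, 0.00788% and 0.163% of the genes tested were. At an unadjusted p under 0.05 (edgeR) were 3, 3 and 2 of the 10, as were 6.86%, 7.86% and 7.56% of all genes tested. These were *Kl* and *Vdr* in 1 comparison each, and *Slc34a1* and *Fgfr1* in all 3. That of *Vdr* was the comparison with ErPT-like cells, which was not refitted without the *Sult1d1*-led cluster. In that cluster *Vdr* had 8.42 and 7.10 CPM in mice 1 and 2, against 30.7 and 8.55 CPM in mice 3 and 4. The part of this cluster in the differences was not tested. The *Slc34a1* differences with loop of Henle-like and distal tubule-like cells were not called and are not taken as differences between classes. Subtraction of free RNA left 0 CPM of *Slc34a1* in both classes in all 4 mice. That level depends on the scaling and does not show absence. *Fgfr1* had differences between -0.83 and -0.51 with adjusted p values between 0.372 and 0.653 (edgeR). Its thinned share in PT-like cells overlapped with that of immune-like cells, which are no clean reference for this gene. The overlap cannot decide whether PT-like cells express *Fgfr1*, and no change of expression is read from these differences. *Kl* had the lowest p, with a change in PT-like cells that was lower than that in loop of Henle-like cells (a difference of -1.36 ± 0.18 on the log2 scale, adjusted p = 0.0651, edgeR). Without the *Umod*- and *Ddit3*-led cluster the difference was -1.15 ± 0.20 (adjusted p = 0.116, edgeR). Without mouse 3 or mouse 4 the adjusted p was 2.24e-05 and 5.00e-05, and without mouse 1 or mouse 2 it was 0.744 and 0.252 (edgeR).

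**Figure D5:**
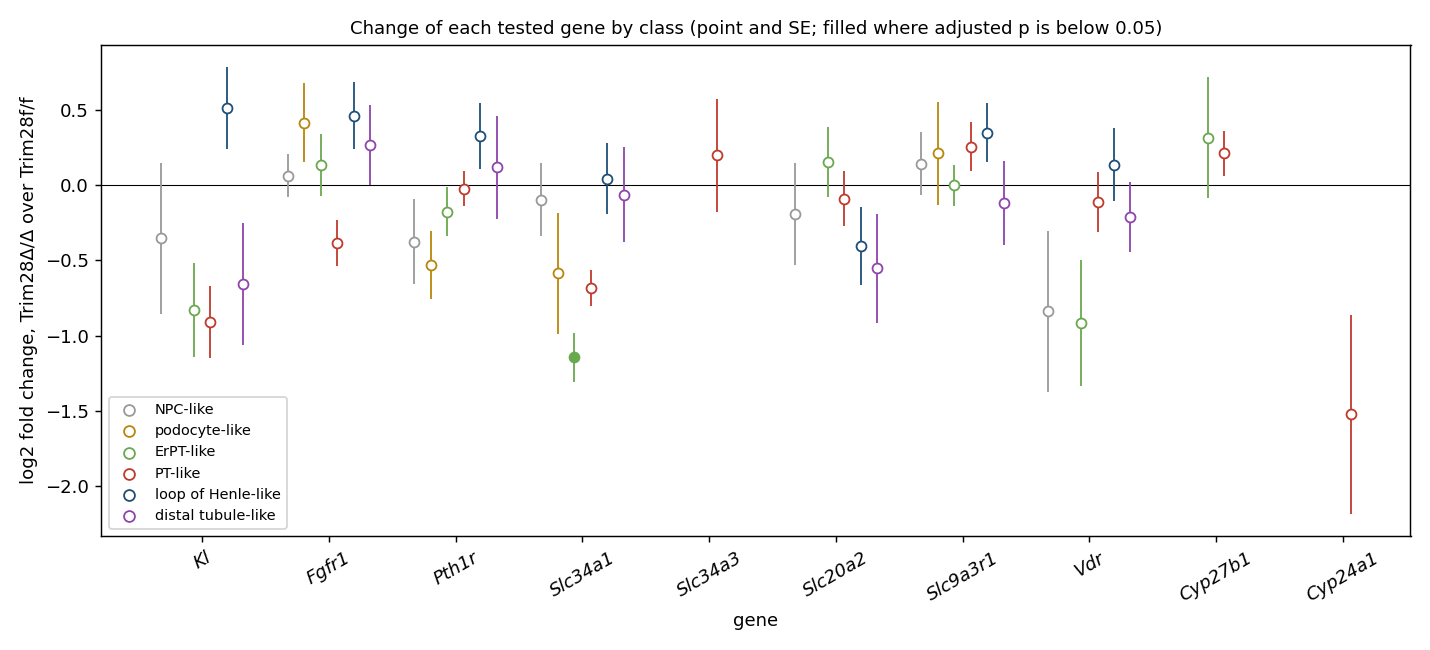
Log2 fold change of Trim28Δ/Δ over Trim28f/f (point) with its SE (line) for each gene that passed the filter on low counts, in 6 classes by colour. The only filled point, with an adjusted p under 0.05, is Slc34a1 in ErPT-like cells, and Kl lies below 0 in PT-like cells and above 0 in loop of Henle-like cells.

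Summed over all cells of a mouse the values differed from those in PT-like cells. The PT-like share of cells was 19.98% and 18.71% in the *Trim28*Δ/Δ mice, against 5.35% and 9.13% in the controls, and in such sums the number of cells of a type and the RNA of each cell cannot be told apart. *Cyp27b1* had 21.5 and 16.7 CPM over all cells of the *Trim28*Δ/Δ mice and 8.22 and 10.1 CPM over those of the *Trim28*f/f mice, a log2 fold change of 1.01 ± 0.19 (adjusted p = 0.101, edgeR). *Slc34a1* had 249 and 205 CPM against 174 and 205 CPM (0.21 ± 0.14, adjusted p = 0.534, edgeR), and *Kl* 42.4 and 31.7 CPM against 27.8 and 44.4 CPM (-0.01 ± 0.26, adjusted p = 0.993, edgeR). None of the 10 genes was called, where 0.206% of 16524 genes were. At an unadjusted p under 0.05 (edgeR) were 4 of the 10, as were 15.7% of all genes tested, and DESeq2 called 2 of the 10 and 4.32% of all genes. In 4 of the 10 both *Trim28*Δ/Δ mice lay above both controls, as 29.4% of all genes did, and in 1, *Fgfr1*, both lay below, as 19.3% did.

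A list of 53 other genes of FGF23 and parathyroid hormone signalling, phosphate and calcium transport, vitamin D metabolism and mineralization was set beside the members. In PT-like cells 35 of them were tested and none was called in edgeR, with 2 at an unadjusted p under 0.05, as were 10.1% of all genes tested, and their median log2 fold change was -0.16. In the other 17 classes 2 calls were made. Over all classes, PT-like cells included, these were 2 of 462 tests of list genes. Of the 160678 tests over all genes 514 gave a call (0.32%), so no excess of calls among the list genes is read from this count. *Stc1*, which encodes the hormone stanniocalcin known for its part in calcium and phosphate balance, fell in distal tubule-like cells from 84.5 and 88.9 CPM in the *Trim28*f/f mice to 34.8 and 26.9 CPM in the *Trim28*Δ/Δ mice (log2 fold change -1.50 ± 0.24, adjusted p = 0.00486, edgeR), where 0.919% of genes were called. In the same cells the summed level of the 5 collecting duct markers was 424 and 272 CPM in the *Trim28*Δ/Δ mice and 862 and 1180 CPM in the controls, and that of the 5 intercalated markers 179 and 134 CPM against 293 and 309 CPM. The erythroid, PT and stroma sums were also lower, and the distal tubule, SSB, NPC and immune sums higher, in both *Trim28*Δ/Δ mice, and the part of these sums in the *Stc1* call was not tested. Of all classes *Stc1* was highest in collecting duct-like cells, with 96.8 and 98.8 CPM against 116 and 127 CPM. The part of RNA from such cells in the call was not tested. *Calb1*, which encodes the calcium carrier calbindin, rose in the unnamed class led by *Spon1* and *Fgf8* from 61.1 and 79.7 CPM to 150 and 235 CPM (1.43 ± 0.21, adjusted p = 0.00629, edgeR), where 0.815% were. In this class the summed ureteric bud markers had 58.2 and 68.7 CPM in the *Trim28*Δ/Δ mice, against 22.5 and 50.9 CPM in the controls, and the summed distal tubule markers 375.5 and 263 CPM against 307.5 and 334 CPM, with overlap. The loop of Henle sum was 390 and 329 CPM against 591 and 509 CPM, and the renal vesicle sum 1563 and 1499 CPM against 1949 and 1973 CPM. The stroma sum was also lower, and the NPC, SSB and immune sums higher, in both *Trim28*Δ/Δ mice, and the part of these sums in the *Calb1* call was not tested. Of all classes *Calb1* was highest in ureteric bud-like cells, with 2607 and 1979 CPM against 904 and 1477 CPM. The part of RNA from such cells in the call was not tested.

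In PT-like cells the markers of other cell types were summed as well. The summed level of the 6 loop of Henle markers was between 337 and 416 CPM over the 4 mice, that of the 5 distal tubule markers between 69.0 and 107 CPM, that of the 7 stroma markers between 25.3 and 91.6 CPM and that of the 6 immune markers between 18.4 and 33.3 CPM. No marker of these lists was at 0. The summed erythroid markers had 1805 and 1500 CPM in the *Trim28*Δ/Δ mice, against 2533 and 2211 CPM in the controls, so this sum moved with the genotype. So did the renal vesicle sum (170 and 199 CPM against 232.5 and 233.5 CPM), the NPC sum (36.3 and 29.9 CPM against 51.0 and 63.9 CPM), the podocyte sum (65.9 and 48.8 CPM against 76.8 and 76.0 CPM) and the intercalated sum (13.3 and 11.9 CPM against 17.3 and 31.8 CPM), and the part of these sums in the values was not tested. The 8 PT markers had 7751 and 7047 CPM against 7995 and 7646 CPM, and the genotypes overlapped.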

How the data were processed

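The authors dissociated kidneys of 4 embryos with a protease active in the cold, labelled the cells of each with a tag, pooled them and made 1 gene expression library and 1 tag library with a 3′ single-cell kit. The pool also held 4508 barcodes with a tag that the labels name for no mouse. Their source is not stated, and part of the free RNA may come from them. The deposited values are raw UMI counts per gene and barcode, 32285 genes and the tags in 1 unfiltered matrix, with no normalization. The submitters' processing notes name Cell Ranger 6.0.0, Seurat 4.0 and R 4.1.0. The positions of genes are those of GRCm38. No other per-sample columns were present.

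Barcodes were kept by the order-of-magnitude rule for 24000 expected cells, and needed 200 genes or more, with mitochondrial UMIs no higher than 10%. Cells were assigned to mice with HTODemux at a quantile of 0.99. Cells with several tags (4721), with an unnamed tag (4508) or with none (2680) were left out, which removed doublets between mice but not those within a mouse, and Scrublet, with a rate of 0.15, served as an alternative. Seurat 5.3.0 with sctransform 0.4.2 gave 2993 variable genes after the 10 members were left out, 30 principal components and clusters at a resolution of 0.8 and, for the finer clustering, 1.2. Clusters were named from marker lists, and the thresholds of naming were set after the clusters had been seen.

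UMIs were summed per mouse and class, where each mouse had at least 10 cells, and tested with edgeR 4.0.16 (filterByExpr, TMM, quasi-likelihood test, 2 mice against 2, threshold of 0.05). Differences between classes were tested in 1 fit with the mouse as a block. The SE of an edgeR fold change is its absolute value divided by the root of the F statistic of the test. That statistic uses a dispersion moderated over all genes, so the SE is not a spread over the mice alone. DESeq2 1.42.0 was an alternative. Free RNA was taken from barcodes with 10 to 100 UMIs and scaled by the 5th percentile of the ratio of class to free level over genes with at least 50 CPM of free RNA. Shares of cells have 95% exact (Clopper-Pearson) intervals, and a count of 0 was limited at 3 counts. Both cover counting error only. The tests measure the spread between 2 embryos of each genotype. Promoter windows are the 250 bases before the start in a RefSeq table.

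The named genes were the 10 members, *Trim28*, genes of the list of 53 that passed the threshold, the 3 genes most like each member with at least 50 CPM in a class, and cell type markers. Genes that name clusters were chosen after their values were seen. The members and lists were chosen with earlier results of these data known. The fits were checked on simulated counts with large changes and the same spread set for all genes. No clusters held by a single mouse were simulated, so that check does not cover the differences between these mice.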

Additional observations from a re-analysis of the deposited data

How the results depend on the processing

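Of the single gene values recomputed under the alternatives, 361 kept their direction and their side of the threshold, 34 were not called either way but had the other sign, 26 passed it only under the alternative and 10 passed it only as reported. None that was called changed its sign. In PT-like cells the 0 members called became 2 with DESeq2, 3 with no filter on low counts and 1 with k-means in HTODemux, and between 0 and 3 with a mouse left out. In ErPT-like cells the 1 member called became 0 with a minimum of 2500 UMIs, 0 where the highest tag had to hold 75% of tag UMIs, 0 with tags normalized across cells and 0 with clustering without called genes, and between 0 and 3 with a mouse left out. In the *Aadat*-led cluster the 2 called became 1 with DESeq2, beside 0.277% of all genes. The members called there were not the same in every fit with a mouse left out, and the call of *Kl* was lost without mouse 1 and without mouse 4. Over all cells the 0 called became 2 with DESeq2 and 2 with no filter, beside 4.32% and 3.80% of all genes. It also changed with the mouse left out. With a mouse left out the calls of members ran from 0 to 7 in the other named classes and from 0 to 8 in the differences between classes, both highest without mouse 4, where 7 of 77 and 8 of 30 member tests were called beside 9.95% and 4.13% of the tests of all genes. Without mouse 4, 3 members in PT-like and 3 in ErPT-like cells and 4 over all cells were called, beside 8.62%, 17.8% and 26.2% of all genes. The number of list genes called in PT-like cells changed with the mouse left out, as did that of all genes, and no excess is read from it.

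The 56 genes called in PT-like cells became 102 with DESeq2, 579 with no filter, 32 with free RNA subtracted, 93 with k-means, 99 with the 75% tag share, 97 with tags normalized across cells, and 16 to 1114 with a mouse left out. The 42 genes called in ErPT-like cells became 360 with no filter, 11 with free RNA subtracted, 94 at a resolution of 0.4, 86 with the 75% tag share, 72 with tags normalized across cells, and 0 to 2047 with a mouse left out. Leaving out mouse 4 gave the 1114 and the 2047. A lone mouse is assumed there to vary like the mice of the other genotype. The cause of these shifts was not tested. The difference in the share of PT-like cells with a *Slc34a1* UMI moved from -1.92 to -5.62 percentage points after thinning, and 10 of the 21 like genes were named again with 1 CPM added in place of 10. Tags normalized across cells and the finer clusters taken alone or left out were chosen after seeing the data.

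No paired analysis was possible because the 4 mice carry no shared replicate numbers and come from 1 pool. With 2 mice per genotype and 126 and 196 UMIs of *Slc34a3* and *Cyp24a1*, small changes of these genes were not detectable.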
